A study of Rattus norvegicus with 24 samples.

Results

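The 24 libraries described here were split by the level of Tcf7l2, and all 24 libraries of the series entered the comparison. Within each of 4 groups the 6 libraries were ranked by Tcf7l2 CPM (counts of the gene per 1000000 counts of the library), and the 3 highest, called Tcf7l2-rich, were set against the 3 lowest, called Tcf7l2-poor. This gave 12 rich and 12 poor libraries. The RNA was from whole dissected hypothalamus of Sprague Dawley rats at postnatal day 10 (PN10). Control offspring (CON-O) and high fat diet offspring (HFD-O) of each sex made up the 4 groups, with 6 pups each. Their dams ate a control diet with 12% or a high fat diet with 43% of digestible energy from lipids. The diets ran from 3 weeks before mating, through pregnancy and up to PN10, and the pups carried no genetic change. The litter of each pup is not given in the labels, so p-values measure the spread between these libraries. Within each diet the sequenced pups outnumbered the litters, so some CON-O pups and some HFD-O pups were littermates. Which pups shared a litter is not known, and the main fit treated all 24 libraries as independent.

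Tcf7l2 is a transcription factor that binds DNA at Wnt target genes with beta-catenin as its partner. In the postnatal forebrain it is known as a marker of excitatory neurons of the thalamus and of the habenula, and cells of the oligodendrocyte lineage use it as they begin to make myelin. The thalamus lies directly above the hypothalamus, and a block of hypothalamus can hold a variable amount of it. In bulk RNA, fewer cells of a type and less RNA per cell cannot be told apart.

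Tcf7l2 varied widely within every group. In female CON-O, libraries 10, 8 and 6 had 40.7, 45.5 and 76.1 CPM, and libraries 2, 4 and 12 had 103.3, 222.2 and 255.4 CPM. In female HFD-O, libraries 16, 14 and 22 had 37.7, 81.2 and 108.3 CPM, and libraries 18, 20 and 24 had 142.0, 164.7 and 267.1 CPM. The highest library of a group thus stood 6.28-fold above the lowest in female CON-O and 7.08-fold in female HFD-O. In male CON-O, libraries 9, 7 and 1 had 36.9, 92.5 and 121.6 CPM, and libraries 5, 11 and 3 had 193.4, 195.8 and 222.9 CPM. In male HFD-O, libraries 23, 17 and 15 had 38.7, 55.6 and 93.0 CPM, and libraries 13, 21 and 19 had 127.7, 136.7 and 233.7 CPM. The ratio of highest to lowest was 6.04 in male CON-O and 6.05 in male HFD-O. These values chose the libraries and carry no test. The libraries on either side of the division lay at 103.3 and 76.1 CPM in female CON-O, 142.0 and 108.3 in female HFD-O, 193.4 and 121.6 in male CON-O, and 127.7 and 93.0 in male HFD-O, so the poor male CON-O library 1 lay above the rich female CON-O library 2.

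**Figure D1:**
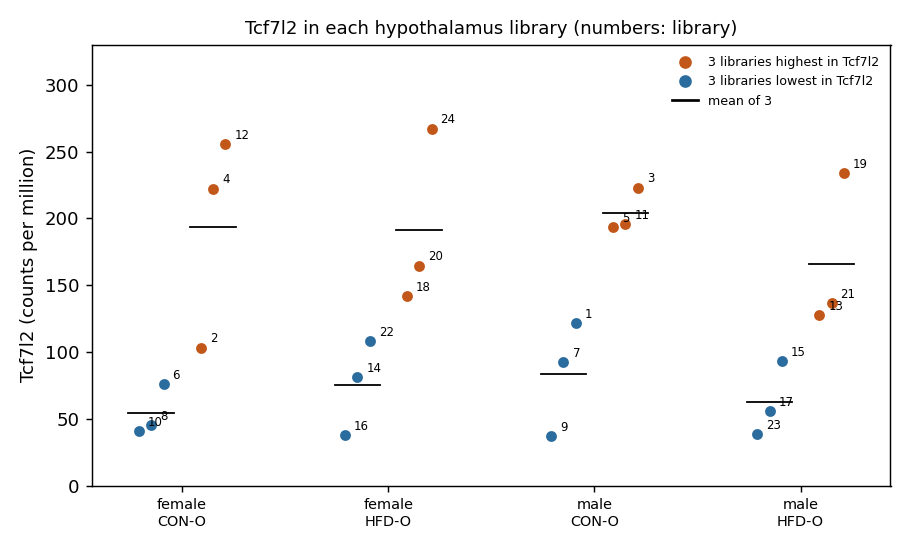
Tcf7l2 CPM (y axis) in each library, by labelled group (x axis). Orange points are the 3 libraries of a group highest in Tcf7l2, blue points the 3 lowest, and the bars their means. Values ran from 36.9 to 267.1 CPM, and each group held libraries near both ends.

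No difference in Tcf7l2 by maternal diet passed the test, a comparison that the ranking within groups did not use. In females the mean was 124 ± 92.5 CPM in CON-O and 133.5 ± 79.3 CPM in HFD-O (SD, n = 6 each), a log2 fold change of 0.10 (SE 0.48, adjusted p = 0.976, edgeR quasi-likelihood test). In males it was 144 ± 72.1 CPM in CON-O and 114 ± 70.1 CPM in HFD-O, a log2 fold change of -0.35 (SE 0.48, adjusted p = 0.972, edgeR quasi-likelihood test). The spread within a group was larger than either difference.

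Library totals ran from 6132112 to 7994399 counts. Rich libraries had a median total of 6712561.5 and poor libraries of 7168662 counts. Library 11, a rich male CON-O library, stood apart in genes of the mediobasal hypothalamus. It held 2 counts of Agrp (0.295 CPM), the appetite-stimulating peptide of arcuate neurons, against 8.46 to 12.9 CPM in the other male CON-O libraries, and 5.31 CPM of Pomc against 18.9 to 27.5 in those libraries. Counts and values of the hypothalamic lists are therefore also given without library 11. Genes of the hypothalamus were detected in the other libraries, among them Avp (73.4 to 240 CPM) and Hcrt (21.3 to 66.0 CPM) in every library.

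Genes called higher in the rich libraries included Shox2, Ntng1 and Gbx2 of the thalamic relay nuclei, and genes called lower included Nr5a1, Pdyn and Six6 of hypothalamic nuclei. Of 11629 genes tested without Tcf7l2 itself, 497 (4.27%) passed an adjusted p of 0.05 in edgeR's quasi-likelihood test with the labelled group in the fit. Of all genes tested, 291 (2.5%) were called higher and 206 (1.77%) lower in the rich libraries. The test asks which genes covary with Tcf7l2 over these libraries, and no treatment separates the rich from the poor. Most differences were small, with a median log2 fold change of 0.18 among genes called higher and -0.24 among those called lower. The 6 called genes with a log2 fold change of 1 or more in either direction were all higher: Slc17a7, Shox2, Foxa2, Gbx2, RGD1305627 and Rtn4rl2. The direction of the fit was the same in all 4 groups for 410 of the 497 genes. These genes were called on the same 4 groups, so this agreement is partly built in and is no replication. With column sums in place of TMM factors, 241 genes were called higher and 250 lower.

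The number of calls varied with the libraries included. Leaving out 1 library gave from 162 calls (without the poor female CON-O library 8) to 1651 (without the rich female HFD-O library 24). Female libraries alone gave 4 calls, male libraries alone 1216, CON-O alone 791 and HFD-O alone 2. The difference itself was not called for any gene: the term for rich against poor by sex gave 0 of 11629 genes (0%) in edgeR's quasi-likelihood test and 0 in its likelihood ratio test, with 826 genes at an unadjusted p under 0.05 and a smallest adjusted p of 0.658. The term by maternal diet gave 0 genes (0%) in both edgeR tests, with 831 at an unadjusted p under 0.05 and a smallest adjusted p of 0.696. Pairs of consecutive library numbers as a block left 6 calls, and 6 of the 12 pairs held 1 rich and 1 poor library. Whether the pups of a pair shared a litter is not given in the labels.

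**Figure D2:**
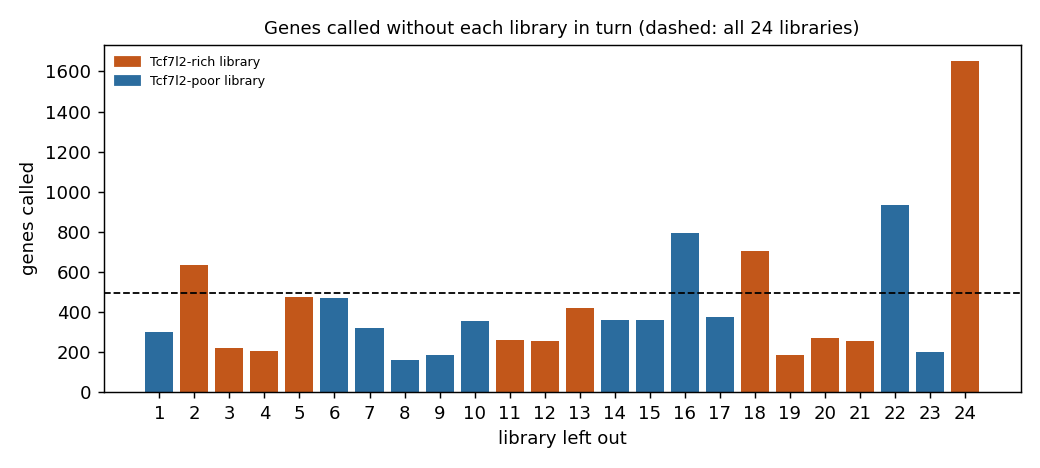
Number of genes called at an adjusted p of 0.05 (y axis) when each library (x axis) was left out in turn. Bars are coloured by whether the library left out was rich or poor in Tcf7l2, and the dashed line marks the 497 genes of all 24 libraries. Counts ran from 162 without library 8 to 1651 without library 24.

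Of the thalamic relay genes, 7 were higher in the rich libraries and 13 were not called. The list of 22 genes of thalamic relay nuclei had 20 members tested and 0 called lower (2.5% of all genes were called higher), with a median log2 fold change of 0.24 beside 0.002 for all genes. Estimates were above 0 for 19 of the 20, and Tnnt1, encoding a slow skeletal troponin, had -0.90 with an adjusted p of 0.113. The 7 genes were Ntng1, Shox2, Calb2, Gbx2, Necab1, Foxp2 and Vav3. The list's summed level ran from 1884 to 2320 CPM in the rich and from 1752 to 2067 CPM in the poor libraries.

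Shox2, a homeobox gene known from developing thalamic neurons, had the second largest fold change of the called genes. In female CON-O it had 0.311, 0.432 and 1.02 CPM in the poor and 3.19, 4.53 and 6.52 in the rich libraries. In female HFD-O it had 0.141, 1.21 and 1.95 CPM in the poor and 3.44, 3.59 and 8.21 in the rich libraries. In male CON-O it had 0.138, 1.85 and 1.91 CPM in the poor and 2.36, 4.86 and 5.57 in the rich libraries, and in male HFD-O 0.250, 1.08 and 1.38 in the poor and 1.84, 2.85 and 5.47 in the rich. Rich and poor libraries did not overlap in any group. The log2 fold change was 2.16 (SE 0.31, adjusted p = 0.000599, edgeR quasi-likelihood test), and it rests on 1 to 62 counts per library. Only 6 genes (0.0516% of those tested) kept rich above poor libraries without overlap in all 4 groups, namely Shox2, Ntng1, Wasf1, Uqcrfs1, LOC690617 and Fam69a, and 0 of 11629 (0%) did so in the lower direction.

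Ntng1 encodes netrin-G1, a membrane-anchored protein on axons of thalamic neurons. It ranged from 93.3 to 128 CPM (median 112) in the rich and from 65.2 to 97.8 CPM (median 74.9) in the poor libraries. Its log2 fold change was 0.49 (SE 0.07, adjusted p = 0.000468, edgeR quasi-likelihood test), and it was called in each of the 24 fits that left out a library. Its adjusted p was 0.131 in females alone, 0.194 in HFD-O alone and 0.186 with library pairs as a block, with log2 fold changes of 0.48, 0.48 and 0.41. Gbx2, a homeobox gene needed in the mouse for thalamic development, ranged from 3.54 to 13.1 CPM (median 8.00) in the rich and from 0.876 to 10.1 CPM (median 3.56) in the poor libraries. Its log2 fold change was 1.20 (SE 0.27, adjusted p = 0.0169, edgeR quasi-likelihood test). Rich lay above poor without overlap in 2 of 4 groups, a description only, since the share of all genes that did so is not given. Calb2, encoding the calcium buffer calretinin, had a log2 fold change of 0.22 (SE 0.04, adjusted p = 0.00412). Necab1, Foxp2 and Vav3 had adjusted p-values of 0.0373, 0.0407 and 0.0464, and stayed called in 14, 9 and 9 of the 24 fits without 1 library.

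Slc17a7 encodes the vesicular glutamate transporter VGLUT1, which is found in the cortex and in part of the thalamus, and it had the largest fold change of the called genes. It ranged from 2.73 to 13.1 CPM (median 7.67) in the rich and from 0.250 to 3.96 CPM (median 1.02) in the poor libraries. The log2 fold change was 2.30 (SE 0.33, adjusted p = 0.000599, edgeR quasi-likelihood test). Rich and poor libraries were apart in female CON-O and male HFD-O but overlapped in the other groups. The share of all genes apart in as many groups is not given. Slc17a7 stood on the list of telencephalon genes, of which 14 were tested, 1 was called higher and 1 lower (Bcl11b, log2 fold change -0.24), with a median of -0.07. Of all genes tested, 2.5% were called higher and 1.77% lower. Bcl11b stayed called in 5 of the 24 fits without 1 library.

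**Figure D3:**
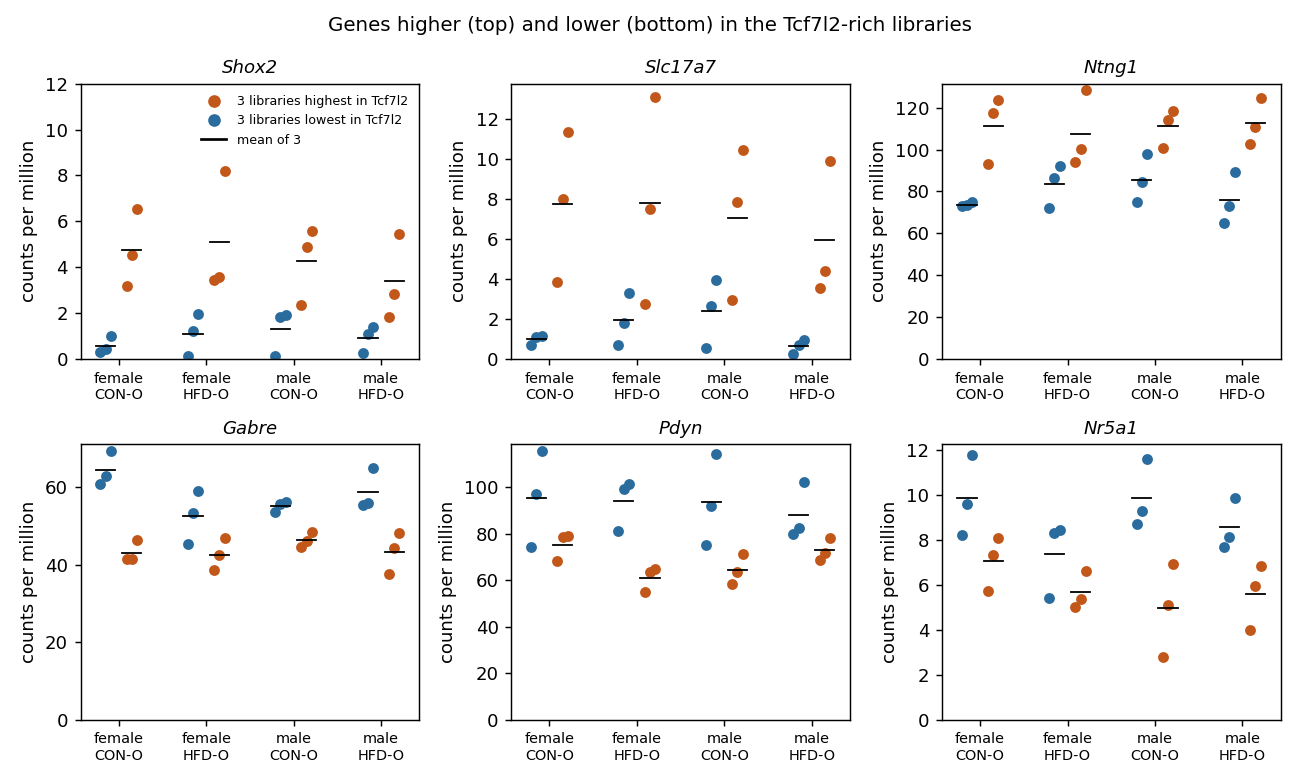
CPM (y axis) of 3 genes higher and 3 genes lower in Tcf7l2-rich libraries, by labelled group (x axis). Orange points are rich and blue points poor libraries, with bars for the means of 3. Shox2 and Ntng1 were apart in all 4 groups, and Slc17a7 in 2 groups. Gabre, Pdyn and Nr5a1 were apart in 3 groups each. The share of all genes apart in 2 or 3 groups is not given, so these counts only describe the panels.

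Other genes among the 12 with the smallest p on the higher side were Pcp4l1, Wasf1, Fgf13, Fzd10, S100a10, Adra1d, Nr2f1, Nell1 and Rap1gds1. Pcp4l1, a small protein related to Purkinje cell protein 4, ranged from 43.6 to 58.7 CPM in the rich and from 34.8 to 46.5 CPM in the poor libraries, with a log2 fold change of 0.37 (SE 0.05, adjusted p = 0.000468, edgeR quasi-likelihood test). Fgf13, a regulator of sodium channels, had a log2 fold change of 0.30. Adra1d, an alpha-1 adrenergic receptor, had 0.92, and the nuclear receptor gene Nr2f1 had 0.35.

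The 10 genes whose CPM moved most like that of Tcf7l2 were Shox2, Ntng1, Slc17a7, Wasf1, Kitlg, Rap1gds1, Prkch, Gbx2, Nr2f1 and Fgf13. Pearson's r of log2(CPM + 1), each centred within its labelled group, was 0.96 for Shox2, 0.95 for Ntng1, 0.92 for Slc17a7 and 0.88 for Fgf13 over the 24 libraries. These are descriptions with no p, and the paired values share the library and its depth.

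Of 9 habenula genes tested, 0 were called higher and 1 lower (Lrrc55, log2 fold change -0.21, SE 0.06, adjusted p = 0.0376), with a median of 0.02. Chrnb3, a nicotinic receptor subunit, had a log2 fold change of 0.97 with an adjusted p of 0.176. Genes of the reticular thalamus and zona incerta gave 1 of 11 higher and 1 lower, and the homeobox genes concerned were Pax6 (log2 fold change 0.55, SE 0.15, adjusted p = 0.0368) and Isl1 (log2 fold change -0.31, SE 0.09, adjusted p = 0.0376). Over the 24 fits without 1 library, Lrrc55 and Pax6 were each called in 13, and Isl1 in 10. Pretectal genes had 0 of 7 called. Of all genes tested, 2.5% were called higher and 1.77% lower, so 1 call in lists this short says little.

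Midbrain dopamine genes were higher by estimate in 10 of 11 members, with a median log2 fold change of 0.34, and 1 was called. Foxa2, a forkhead factor of the ventral midbrain, ranged from 0.927 to 5.56 CPM in the rich and from 0.276 to 2.82 CPM in the poor libraries, with a log2 fold change of 1.38 (SE 0.32, adjusted p = 0.022). Slc6a3, the dopamine transporter, had a log2 fold change of 1.55 (SE 0.57, adjusted p = 0.107). It ranged from 2.27 to 121 CPM in the rich and from 2.49 to 30.5 CPM in the poor libraries. Libraries ranked by Slc6a3 in the same way shared 7 of their 12 rich libraries with the Tcf7l2 split. Rankings by other genes shared 8 (Mbp), 7 (Hcrt), 6 (Agrp and Avp each), 4 (Slc6a13, Hbb and Fos each) and 1 (Nr5a1). The 7 therefore does not set Slc6a3 apart. With the midbrain score in the fit 452 genes were called, 355 of them among the 497.

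Of 40 genes tested from 5 lists of hypothalamic nuclei, 0 were called higher and 6 lower in the rich libraries (1.77% of all genes were called lower), and 5 were lower without library 11. Nr5a1, a nuclear receptor needed for the ventromedial nucleus, ranged from 2.80 to 8.08 CPM (median 5.84) in the rich and from 5.41 to 11.8 CPM (median 8.59) in the poor libraries. Its log2 fold change was -0.61 (SE 0.12, adjusted p = 0.009, edgeR quasi-likelihood test), and -0.54 with an adjusted p of 0.0112 without library 11. A ranking by Nr5a1 shared 1 of its 12 rich libraries with the ranking by Tcf7l2. Of 9 ventromedial genes tested, 0 were called higher and 3 lower, the other two being Nkx2-1, a homeobox gene that patterns the hypothalamus (log2 fold change -0.38, SE 0.11, adjusted p = 0.0422), and the zinc finger gene Fezf1 (log2 fold change -0.25, SE 0.07, adjusted p = 0.0418). Without library 11, Nkx2-1 had an adjusted p of 0.0274 and Fezf1 of 0.0672, which left 2 of the 9 genes called lower. Over the 24 fits without 1 library, Nkx2-1 was called in 9, with an adjusted p of up to 0.0812, and Fezf1 in 11, with up to 0.0885.

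All 10 arcuate genes tested had estimates below 0, with a median log2 fold change of -0.24 (-0.17 without library 11). Of these, 1 was called lower, beside 1.77% of all genes. Pdyn, the precursor of the dynorphin peptides, ranged from 54.8 to 79.1 CPM (median 68.4) in the rich and from 74.4 to 115 CPM (median 94.5) in the poor libraries. Its log2 fold change was -0.43 (SE 0.07, adjusted p = 0.00223, edgeR quasi-likelihood test), with an adjusted p of 0.00444 without library 11. The genes of feeding peptides had log2 fold changes of -0.21 for Npy (adjusted p = 0.212), -0.31 for Pomc (adjusted p = 0.183) and -0.15 for Agrp (adjusted p = 0.716). Without library 11 they were -0.15 for Npy (adjusted p = 0.306), -0.22 for Pomc (adjusted p = 0.196) and -0.02 for Agrp (adjusted p = 0.940). Paraventricular and supraoptic genes had 0 of 8 called. Of 7 preoptic and suprachiasmatic genes, the homeobox gene Six6 was lower (log2 fold change -0.36, SE 0.07, adjusted p = 0.00774, and 0.0154 without library 11). Of 6 lateral hypothalamic genes, Npvf, the precursor of RFamide-related peptides, was lower (log2 fold change -0.43, SE 0.11, adjusted p = 0.0249, and 0.0446 without library 11), and Hcrt had a log2 fold change of 0.18 with an adjusted p of 0.458.

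The 12 genes with the smallest p on the lower side were Gabre, Vwa5b1, Pdyn, Calcr, Slit2, Igsf10, Asb4, Tcf20, Rasgrf2, Gaa, Six6 and Gpc4. Gabre encodes the epsilon subunit of the GABA-A receptor. It ranged from 37.6 to 48.5 CPM (median 44.4) in the rich and from 45.4 to 69.4 CPM (median 56.0) in the poor libraries. Its log2 fold change was -0.38 (SE 0.05, adjusted p = 0.000468, edgeR quasi-likelihood test). Calcr, the calcitonin receptor, ranged from 305 to 413 CPM in the rich and from 359 to 471 CPM in the poor libraries, with a log2 fold change of -0.27. Slit2, a secreted axon guidance protein, had -0.31. Among other called genes, picked after their values were seen, the estrogen receptor gene Esr1 had a log2 fold change of -0.50, the neuronal nitric oxide synthase gene Nos1 -0.45, the prohormone convertase gene Pcsk1 -0.18 and the receptor gene Prlhr -0.37. Of the 24 fits without 1 library, Esr1 was called in 21, Nos1 in 24, Pcsk1 in 22 and Prlhr in 11.

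**Figure D4:**
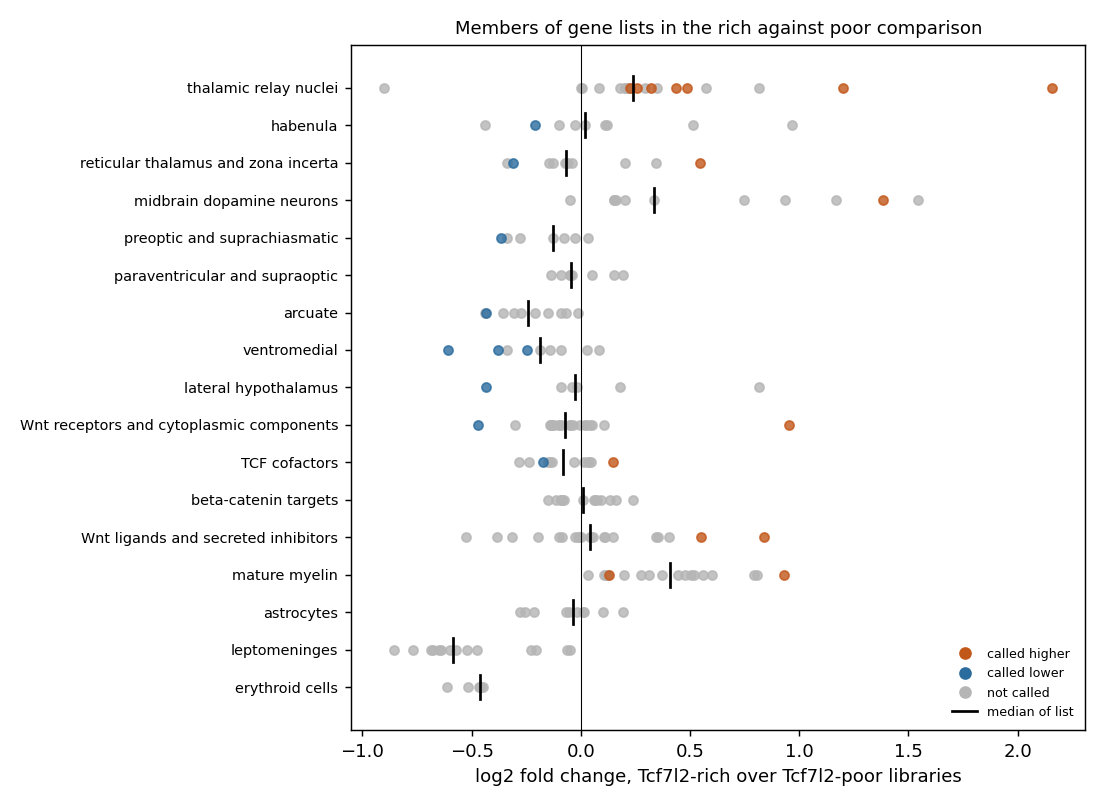
Log2 fold change of rich over poor libraries (x axis) for the members of 17 gene lists (y axis). Orange points were called higher, blue points lower, grey points not called, and the bar is the list's median. The thalamic relay list held 7 genes called higher, and the arcuate and ventromedial lists only genes called lower or not called.

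Members of the Wnt pathway, in which Tcf7l2 acts, gave calls in both directions. Of 70 genes tested in 5 Wnt lists, 4 were called higher (5.71%, beside 2.5% of all genes) and 2 lower (2.86%, beside 1.77%), and without library 11 it was 3 and 1. The other TCF and LEF factors were not called, with log2 fold changes of 0.01 for Lef1 (SE 0.10, adjusted p = 0.975) and -0.05 for Tcf7l1 (SE 0.08, adjusted p = 0.694). The estimate for Lef1 was so near 0 that its sign changed with column sums in place of TMM factors (-0.0053). Ctnnb1, encoding beta-catenin itself, ranged from 651 to 703 CPM in the rich and from 661 to 698 CPM in the poor libraries, a log2 fold change of -0.01 (SE 0.02, adjusted p = 0.881). Of 15 targets of beta-catenin, 0 were called, with a median log2 fold change of 0.01, and Axin2 had -0.08 with an adjusted p of 0.455.

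Upstream of beta-catenin, 20 receptors and cytoplasmic components gave 1 call in each direction, beside 2.5% of all genes called higher and 1.77% lower. The frizzled receptor Fzd10 ranged from 8.13 to 21.3 CPM (median 15.6) in the rich and from 3.73 to 11.0 CPM (median 7.73) in the poor libraries, with a log2 fold change of 0.96 (SE 0.14, adjusted p = 0.000684, edgeR quasi-likelihood test). Fzd5, another frizzled receptor, had a log2 fold change of -0.47 (SE 0.12, adjusted p = 0.0338) and was called in 13 of the 24 fits without 1 library. Of 21 ligands and secreted inhibitors, Wnt3 (log2 fold change 0.55, SE 0.11, adjusted p = 0.00635) and Wnt9b (log2 fold change 0.84, SE 0.18, adjusted p = 0.0119) were higher, and 0 were lower. Of 12 cofactors, Ctnnbip1, which blocks binding of beta-catenin to TCF factors, was higher (log2 fold change 0.15) and Bcl9l, a co-activator, was lower (log2 fold change -0.17). Ctnnbip1 stayed called in 11 of the 24 fits without 1 library, and Bcl9l in 24.

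The motif that TCF factors bind, searched as CTTTGAT or CTTTGAA on both strands in the 250 bases before the start of genes in RefSeq (build GRCr8), was found in 11 of 197 promoters of genes called higher (5.58%) and 6 of 148 of genes called lower (4.05%). It was found in 427 of 8375 promoters of genes tested (5.1%) and in 1826 of all 24206 promoters searched (7.54%). Of the 24 genes with the smallest p, 20 had a promoter in the table and 0 held the motif, which says only that these letters were not in that window. The promoters below show what a match looks like, for Cd44, a cell-surface receptor for hyaluronan, and Npvf. Both genes were lower in the rich libraries and were picked after their values were seen. Capitals mark the motif, which here lies on the reverse strand. A match is a description and not evidence of binding.
Cd44, chr3:109699425-109699674, minus strand, GRCr8: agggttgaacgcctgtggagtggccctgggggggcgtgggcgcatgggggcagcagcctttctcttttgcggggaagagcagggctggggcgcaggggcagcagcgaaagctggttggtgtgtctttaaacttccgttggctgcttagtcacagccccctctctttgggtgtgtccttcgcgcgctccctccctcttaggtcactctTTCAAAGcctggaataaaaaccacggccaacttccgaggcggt
Npvf, chr4:81047046-81047295, minus strand, GRCr8: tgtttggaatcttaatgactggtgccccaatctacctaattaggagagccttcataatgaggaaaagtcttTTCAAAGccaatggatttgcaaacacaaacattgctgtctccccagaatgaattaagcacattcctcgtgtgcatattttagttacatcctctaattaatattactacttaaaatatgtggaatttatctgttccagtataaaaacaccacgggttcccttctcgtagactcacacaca
In these libraries Cd44 ranged from 10.8 to 17.2 CPM in the rich and from 15.3 to 24.5 CPM in the poor, and Npvf from 11.2 to 22.3 CPM in the rich and from 15.7 to 28.2 CPM in the poor.

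Cells of the oligodendrocyte lineage, which also express Tcf7l2, were followed by their own lists. Of 18 genes of mature myelin all had estimates above 0, with a median log2 fold change of 0.41, and 2 were called higher (2.5% of all genes were), among them the tetraspanin Tspan2 (log2 fold change 0.13, SE 0.03, adjusted p = 0.036). Mbp, myelin basic protein, ranged from 479 to 1687 CPM in the rich and from 412 to 1298 CPM in the poor libraries (log2 fold change 0.60, SE 0.20, adjusted p = 0.071). The list's summed level ran from 1750 to 4478 CPM in the rich and from 1640 to 3707 CPM in the poor libraries. With the myelin score in the fit 242 genes were called, 153 of them among the 497, and Ntng1 and Shox2 had log2 fold changes of 0.54 (adjusted p = 0.000347) and 2.35 (adjusted p = 0.000915). Precursors gave 1 of 9 called higher (C1ql1) and newly formed oligodendrocytes 1 of 12 (Rras2). C1ql1 stayed called in 9 of the 24 fits without 1 library, Tspan2 in 13 and Rras2 in 24.

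Of other cell types, 15 neuronal genes gave 3 called higher and 0 lower, beside 2.5% and 1.77% of all genes. The 3 were all neurofilament subunits of axons: Nefl (log2 fold change 0.25), Nefm (0.27) and Nefh (0.37). The neuronal list as a whole lay on both sides of 0, with 8 estimates above, 7 below and the middle one at 0.02. All 14 genes of the leptomeninges had estimates below 0, with a median log2 fold change of -0.59 and 0 called. The summed level of that list ran from 159 to 959 CPM in the rich and from 261 to 1507 CPM in the poor libraries, and Col1a1 had a log2 fold change of -0.60 (SE 0.23, adjusted p = 0.121). All 6 erythroid genes were below 0 by estimate, with 0 called. Astrocytes, endothelium, mural cells, microglia, choroid plexus and ependyma had 0 called, and the part of any of these cells in the differences above was not tested.

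Subunits of the respiratory chain and ATP synthase, picked by symbol after the calls were seen, gave 31 of 83 called higher and 0 lower, beside 2.5% of all genes, with a median log2 fold change of 0.13. Their summed level ran from 13430 to 15190 CPM (median 14676) in the rich and from 12230 to 14520 CPM (median 13332) in the poor libraries. Uqcrfs1, the Rieske subunit of complex III, ranged from 208 to 238 CPM in the rich and from 182 to 211 CPM in the poor libraries (log2 fold change 0.18, SE 0.03, adjusted p = 0.00359). Vacuolar ATPase subunits gave 6 of 18 called higher, and cytosolic ribosomal proteins 3 of 81. Protocadherins gave 0 of 49 called higher and 4 lower, beside 1.77% of all genes called lower. Genes called higher spanned a median of 12.7 kb of the genome and those called lower 68.6 kb, beside 24.9 kb for all genes tested, among the genes with a span in RefSeq (GRCr8). The study screened its RNA samples by an integrity score, but no score per library is given in the labels. Transcript length was not measured. The part of RNA quality or transcript length in these differences was not tested.

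Since each labelled group of sex and diet held 3 rich and 3 poor libraries, the split could enter the test of the maternal diet. Over both sexes, 34 genes (0.292%) were called for the diet with the split in the fit and 22 (0.189%) without it, in edgeR's quasi-likelihood test. All 22 were among the 34. Diet was given to the dams, while the fit took each pup as a unit, although some pups of each diet were littermates. The p-values for diet therefore do not measure the spread between litters. Col1a1, the collagen gene that was higher in HFD-O, had a log2 fold change of 1.04 (SE 0.23, adjusted p = 0.0469) with the split and 1.01 (SE 0.26, adjusted p = 0.109) without it. Gfap, the intermediate filament of astrocytes, had 0.43 (SE 0.09, adjusted p = 0.0335) with the split and 0.42 (SE 0.10, adjusted p = 0.0879) without it.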

How the data were processed

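Counts of 24 hypothalamus RNA-seq libraries from PN10 pups were analysed. The authors deposited 1 table per sex with whole-number counts per gene and library, and their printed totals equal the sums of those counts. The submitters' notes list FastQC, TopHat, edgeR and build rn6, while the methods name Trimmomatic and Bowtie2. No source used here names the counter or its strand setting, so overlapping genes may share counts. Another 24 columns of per-sample values and the authors' own comparisons (fold changes, p-values) were not used. Dates stood in place of 23 and 24 gene names (0.239% and 0.237% of counts), and 13841 named genes lay in both tables.

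Within each group the 3 libraries highest in Tcf7l2 CPM were set against the 3 lowest. Counts were fitted in R 4.3.3 with edgeR 4.0.16 (TMM, filterByExpr with minimum count 10, glmQLFTest, group as covariate), leaving out Tcf7l2, with Benjamini-Hochberg adjustment over 11629 genes. All adjusted p-values are from this test unless another is named. The alternatives were the likelihood ratio test, limma-voom 3.58.1, DESeq2 1.42.0, other scalings and filters, other forms of the split, subsets, single libraries left out, a library pair block, and a myelin or midbrain score (mean log2(CPM + 1) of the list). The fit was tested on simulated data. The split, the gene lists and the rules for naming genes were chosen with earlier results of these data known. Genes are named for the smallest p (12 each way), for list membership (up to 4 a list), for likeness to Tcf7l2 (10) or because the study turns on them. The lists held 33 sets of cell type, nucleus and pathway genes. Some genes, and 1 list that turned on such a gene, are not reported here. Of the other lists left out of the report, subthalamic and mammillary nuclei gave 1 of 9 higher, beside 2.5% of all genes. Immediate early genes gave 0 calls of 10, proliferation 0 of 8 and anterior pituitary 0 of 1.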

Additional observations from a re-analysis of the deposited data

Results flagged for a closer look

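Among 13 genes in 4 groups of 6 libraries (52 sets), 4 values in 3 libraries lay far from the other 5 of their group, and chance gives about 1 in 20 sets. Agrp was at 0.295 CPM in male CON-O library 11, against 8.46 to 12.9 CPM in the others. Mbp was at 1687 CPM in the same library, against 454 to 855 CPM, and at 1229 CPM in female CON-O library 12, against 479 to 759 CPM. Slc6a3 was at 54.0 CPM in female CON-O library 2, against 2.27 to 9.16 CPM. The 3 libraries were in the Tcf7l2-rich set.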

How the results depend on the processing

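The count of called genes stayed within 1.5 times the 497 of all libraries with limma-voom (500), RLE factors (488), column sums (491), both other filters (421 and 497), log2 Tcf7l2 CPM as a number (498), the 2 highest against 2 lowest libraries of each group (588), the likelihood ratio test (720) and the midbrain score (452). It was 772 with DESeq2, 1216 in males alone, 791 in CON-O alone, 4 in females alone, 2 in HFD-O alone, 242 with the myelin score and 6 with library pairs as a block. Leaving out 1 library gave 162 to 1651 calls. The count fell by more than 1.5 times without libraries 1 (302), 3 (220), 4 (205), 7 (322), 8 (162), 9 (188), 11 (263), 12 (255), 19 (185), 20 (272), 21 (257) or 23 (203), and grew by more than 1.5 times without libraries 16 (794), 22 (934) and 24 (1651). Subsets hold fewer samples, and otherwise the cause was not tested. A like count did not always mean the same genes. Of the 497 genes, 483 were called again with RLE factors and 475 with limma-voom. With log2 Tcf7l2 CPM as a number 318 were called again, and with the 2 highest against 2 lowest libraries 328. Of 61 named genes called, 0 changed sign under any alternative, and 2 stayed called with library pairs as a block (Foxa2 and Nefh). Diet calls with the split in the fit were 34, against 22 without it, and by likelihood ratio test 130 with and 94 without it. List counts without library 11 were added after the data were seen. For Tcf7l2 by diet, an exact permutation test added after the data were seen gave mean log2 differences of 0.22 in females (p = 0.716) and -0.35 in males (p = 0.55).

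Genes not called changed sign as follows. Lef1 had -0.0053 with column sums, -0.044 with 2 against 2, -0.0031 in females alone, -0.036 in HFD-O alone, and from -0.037 to 0.039 in the fits without 1 library. Ctnnb1 had 0.0029 with log2 Tcf7l2, 0.0016 with 2 against 2 and 0.0076 in males alone, and Tcf7l1 0.019 in CON-O alone. Mog had -0.0050 with library pairs and -0.016 with the myelin score, and Slc6a3 -0.31 with the midbrain score. Mog is part of the myelin score and Slc6a3 of the midbrain score, so their shifts under these scores are partly built in. In females alone Lepr had 0.42, Hcrt -0.17, Col3a1 0.091, Igf2 0.096 and Slc6a13 0.40. In HFD-O alone Agrp had 0.055, Avp -0.052 and Hbb 0.018. Hcrt had -0.12 with the myelin score and Avp -0.18 with library pairs. Low counts, such as 1 to 62 per library for Shox2, limit precision.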
